A study of Mus musculus with 3 samples.

Results

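The chemokines Cxcl13, Cxcl12, Ccl19, Ccl21a and Ccl20 and the receptors Cxcr5 and Cxcr4 were followed through single-cell libraries of mouse large intestine. They were taken by gene symbol and are 7 of 32245 genes in the count tables, held in 9 of 32285 feature rows, because Ccl19 and Ccl21a each have a second row, for a copy on a separate scaffold, with no counts. The libraries came from lamina propria cells of C57/BL6J mice with acute colitis from dextran sulfate sodium (DSS), given in drinking water. The water held 1.5% DSS for 7 days and none for the last 3 days. The groups were mice given the antibody DATK32, mice given the antibody MECA367 and mice given rat IgG as the control, each at 250 µg intraperitoneally 3 times per week, so all 3 groups had DSS colitis and received an injected antibody. The labels call DATK32 a surrogate of ontamalimab and MECA367 a surrogate of vedolizumab. As these clones are generally known, DATK32 binds the integrin alpha4beta7 and MECA367 its vessel ligand MAdCAM-1, which is the reverse of those labels. Groups are therefore named by clone.

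Chemokines are secreted proteins that attract cells bearing the matching receptor. In gut follicles, CXCL13 from stromal cells draws B cells through CXCR5, CCL19 and CCL21 draw T cells and dendritic cells through CCR7, and CXCL12, made by stroma and vessels, acts on CXCR4 of most leukocytes. CCL20 is made by the epithelium over follicles and by inflamed epithelium, and acts on CCR6 of B cells and some T cells. Lymphocytes enter such tissue through high endothelial venules, and antigens reach it through M cells of the overlying epithelium.

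Each group was 1 library and the number of mice behind it was not stated, so no difference below has a replicate check and no test between treatments was possible. After filtering (at least 500 unique molecular identifiers, UMIs, at least 200 genes and at most 10% mitochondrial UMIs), 5852 DATK32, 5890 MECA367 and 7367 rat IgG barcodes remained, with 17450259, 18357517 and 18109793 UMIs. Levels are given as counts per 1000000 UMIs (CPM) of all barcodes of a class in a library, with exact 95% Poisson intervals in brackets. The intervals cover counting error only and are too narrow for a gene whose UMIs sit in few barcodes. A value was called higher or lower when it differed at least 1.5-fold and the intervals did not touch. Pairs of libraries shared 18 to 20 barcode sequences. CPM of different genes are not compared, since UMI levels also depend on how well each transcript is captured.

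The sort described in the labels kept viable CD45+ cells, yet stromal, endothelial and epithelial barcodes were present. Stromal barcodes numbered 890 in DATK32, 1241 in MECA367 and 1309 in rat IgG, endothelial barcodes 102, 103 and 109, B cells 91, 148 and 497, and T cells 709, 839 and 650, in that order of libraries. Ptprc, which encodes CD45, was counted in 4.83%, 8.06% and 7.26% of stromal barcodes, and in 66.6%, 74.4% and 63.7% of T cells. The stromal class was led by different clusters: cluster 9, marked by Lum and Cilp, held most of it in DATK32 and rat IgG, and cluster 16, marked by Adamdec1 and Ccl11, held most of it in MECA367. Sub-clusters that also carried markers of epithelial, B, plasma or T cells made up 12.6% of DATK32, 13.7% of MECA367 and 22.7% of rat IgG stromal barcodes. Their part in the stromal levels was not tested beyond leaving them out.

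The promoters of a chemokine made by few stromal barcodes (Cxcl13), of one made by most of them (Cxcl12) and of the epithelial one (Ccl20) are shown to set their sequences side by side. Each is the 250 bases before the annotated start, from RefSeq on GRCm38.p6, written 5′ to 3′ on the gene's strand. The genes lie at chr5:95956951-95961068 (Cxcl13, +), chr6:117168535-117181367 (Cxcl12, +), chr1:83116766-83119167 (Ccl20, +), chr4:42754525-42756577 (Ccl19, -), chr4:42772860-42773993 (Ccl21a, -), chr9:44511787-44561877 (Cxcr5, -) and chr1:128588199-128592293 (Cxcr4, -) of GRCm38 in the GENCODE annotation, and all are protein coding there. RefSeq and GENCODE starts can differ: the Cxcl13 window ends at base 95956938, while the GENCODE gene starts at base 95956951. Distances to motifs are counted from the RefSeq start. The promoter windows are chr5:95956689-95956938 (+) for Cxcl13, chr6:117168285-117168534 (+) for Cxcl12 and chr1:83116516-83116765 (+) for Ccl20. Capitals mark TATAAA in Cxcl13 and a match to the kappaB consensus, the motif of NF-kappaB, read on the opposite strand in Ccl20.
Cxcl13 promoter: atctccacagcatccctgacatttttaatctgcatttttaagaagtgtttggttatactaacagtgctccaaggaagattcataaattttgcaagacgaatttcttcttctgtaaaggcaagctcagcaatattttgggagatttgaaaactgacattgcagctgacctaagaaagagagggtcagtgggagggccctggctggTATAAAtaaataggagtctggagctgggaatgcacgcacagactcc
Cxcl12 promoter: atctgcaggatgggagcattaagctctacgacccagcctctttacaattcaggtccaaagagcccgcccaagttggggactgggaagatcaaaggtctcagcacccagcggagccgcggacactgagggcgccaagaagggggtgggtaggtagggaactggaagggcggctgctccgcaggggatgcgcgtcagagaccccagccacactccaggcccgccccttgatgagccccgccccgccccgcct
Ccl20 promoter: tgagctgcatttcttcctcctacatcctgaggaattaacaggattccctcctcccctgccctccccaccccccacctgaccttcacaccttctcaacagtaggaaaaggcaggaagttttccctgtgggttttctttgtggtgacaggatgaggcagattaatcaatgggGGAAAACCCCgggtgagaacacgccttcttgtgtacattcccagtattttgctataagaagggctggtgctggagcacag
The Cxcl13 window held 2 CG pairs and 42% G or C, the Cxcl12 window 14 CG pairs and 64.4%, and the Ccl20 window 2 CG pairs and 51.2%. The median over 32851 promoters of the same length was 6 CG pairs. TATAAA, searched on both strands, lay 46 bases before the Cxcl13 start and occurs in 12.4% of those promoters. The kappaB consensus lay 80 bases before the Ccl20 start and occurs in 3.90% of them. Neither motif was found in the Cxcl12 window. Of the 7 genes, 6 had a promoter in the RefSeq table. A match of letters is a description and not evidence of a bound factor.

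Cxcl13, the B cell attractant of follicles, was a stromal transcript made by a minority of stromal barcodes in all 3 libraries. Of its 5560 UMIs, 81.0% lay in stromal barcodes, 12.6% in unnamed clusters and 4.55% in smooth muscle or pericyte barcodes. Stromal counts were 993 in 134 of the DATK32 barcodes, 2365 in 215 of the MECA367 barcodes and 1148 in 153 of the rat IgG barcodes. Stromal levels were thus 686 [644 to 730] CPM in DATK32, 862 [828 to 898] CPM in MECA367 and 663 [625 to 703] CPM in rat IgG. MECA367 was the highest of the 3, and DATK32 and rat IgG overlapped. The log2 ratio was 0.05 [-0.07 to 0.17] for DATK32 over rat IgG and 0.38 [0.28 to 0.48] for MECA367 over rat IgG, and -0.33 [-0.44 to -0.22] for DATK32 over MECA367. None reached 1.5-fold. In the same 3 comparisons, 0.733%, 3.39% and 3.94% of 11861 stromal genes were called higher and 1.86%, 6.53% and 3.34% were called lower.

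The share of stromal barcodes with a Cxcl13 UMI was 15.1% [12.8 to 17.6] in DATK32, 17.3% [15.3 to 19.5] in MECA367 and 11.7% [10.0 to 13.6] in rat IgG (Clopper-Pearson intervals). Median depth differed as well, with 1283, 1860 and 1020 UMIs per stromal barcode in the same order. Thinned to 1000 UMIs per barcode, which keeps the 616, 1095 and 675 barcodes of that depth or more, the shares were 15.1%, 14.2% and 15.7%, so the order of the unthinned shares did not hold. The CPM of the thinned barcodes gave log2 ratios of -0.53 for DATK32 and -0.38 for MECA367 over rat IgG, so the direction for MECA367 turned, without a call. In neutrophils, which should lack the transcript and whose median depth was 1140, 2492 and 933 UMIs, the share was 0 of 238 DATK32 barcodes, which allows up to 1.26%, 0.347% in MECA367 and 0 of 249 rat IgG barcodes, which allows up to 1.20%.

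Cxcl13 UMIs were concentrated in few barcodes. A stromal barcode with any Cxcl13 held a median of 4 UMIs in DATK32, 3 in MECA367 and 4 in rat IgG, while the highest held 43, 97 and 48. The 10 richest barcodes held 32.9%, 32.2% and 29.4% of each library's stromal Cxcl13. Barcodes with a single UMI made up 19.4% of DATK32, 37.7% of MECA367 and 21.6% of rat IgG carriers. MECA367 thus had both the richest barcode and the largest share of carriers at 1 UMI. In smooth muscle or pericyte barcodes the 89 DATK32, 79 MECA367 and 85 rat IgG UMIs came from 3, 5 and 5 barcodes, and a single DATK32 barcode held 85 of them.

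Within the stroma, Cxcl13 sat in clusters 16 and 21 and was nearly missing from cluster 9, and in each of the 3 clusters the MECA367 library departed from both others. In cluster 16, Cxcl13 was at 1585 CPM in DATK32, 723 CPM in MECA367 and 1539 CPM in rat IgG, with a log2 ratio of -1.09 [-1.22 to -0.96] for MECA367 over rat IgG (lower, as were 3.22% of genes in that cluster) and 1.13 [0.997 to 1.27] for DATK32 over MECA367 (higher, as were 2.97%). In cluster 21, marked by Bmp5, Casq2 and Fgf9, it was at 1179 CPM in DATK32, 2031 CPM in MECA367 and 1024 CPM in rat IgG, with a log2 ratio of 0.99 [0.81 to 1.17] for MECA367 over rat IgG (higher, as were 2.15% of genes) and -0.79 [-1.001 to -0.58] for DATK32 over MECA367 (lower, as were 1.25%). Cluster 9 held 12 DATK32, 103 MECA367 and 10 rat IgG UMIs, a log2 ratio of 3.74 [2.80 to 4.84] for MECA367 over rat IgG (higher, as were 2.09%) and -3.31 [-4.31 to -2.44] for DATK32 over MECA367 (lower, as were 1.73%). Of the 103 MECA367 UMIs, 42 lay in 1 barcode. Without the richest barcode of each library, an alternative chosen after the data were seen, the counts were 7, 61 and 5 and MECA367 over rat IgG was still called higher, at 3.99. DATK32 over rat IgG was not called in any of the 3 clusters, with log2 ratios of 0.04, 0.20 and 0.44 in clusters 16, 21 and 9.

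**Figure D1:**
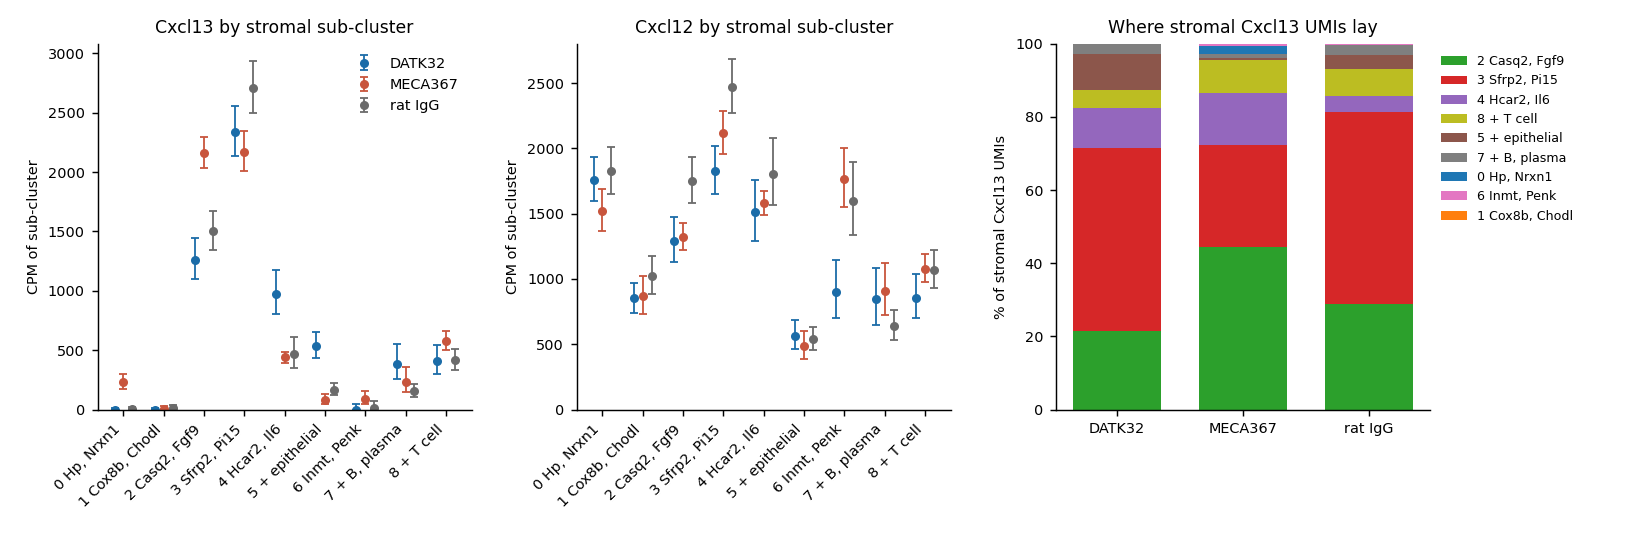
Left and centre: Cxcl13 and Cxcl12 in CPM (points, with exact 95% Poisson intervals) in the 9 stromal sub-clusters of each library, named by leading genes or by a + and the other class whose markers they carry. Right: percent of each library's stromal Cxcl13 UMIs by sub-cluster; sub-clusters 2 and 3 hold most Cxcl13 in every library, with sub-cluster 2 at 44.4% in MECA367 against 28.7% in rat IgG, while every sub-cluster holds Cxcl12.

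Sub-clustering placed most Cxcl13 in 2 groups of stromal barcodes, shown in the plot of stromal sub-clusters. Sub-cluster 2, top-crypt telocyte-like by its markers and led by Casq2, Ednrb and Fgf9, was at 1262 CPM in DATK32, 2159 CPM in MECA367 and 1504 CPM in rat IgG. Sub-cluster 3, led by Sfrp2, Pi15, Tnfsf13b, Fgf7 and Grem1 and left without a cell type name, was at 2338 CPM in DATK32, 2170 CPM in MECA367 and 2709 CPM in rat IgG. No difference between libraries was called in the sub-cluster with Tnfsf13b and Grem1, with log2 ratios of -0.21 for DATK32 over rat IgG, -0.32 for MECA367 over rat IgG and 0.11 for DATK32 over MECA367. In the telocyte-like sub-cluster DATK32 over MECA367 was called lower at -0.78 [-0.99 to -0.56], as were 1.36% of its genes. Sub-cluster 4, led by Hcar2, Tnfaip6, Cxcl1 and Il6, was at 975 CPM in DATK32, 439 CPM in MECA367 and 465 CPM in rat IgG, so DATK32 stood above both, with log2 ratios of 1.07 [0.57 to 1.58] over rat IgG and 1.15 [0.83 to 1.47] over MECA367 (0.759% and 1.75% of its genes were called higher). That DATK32 value rests on 109 UMIs in 11 barcodes. Without the richest barcode of each library the levels were 660, 349 and 249.6 CPM and both calls held, at 1.40 and 0.92.

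A change of level and a change in the makeup of the stromal clusters cannot be told apart here. Sub-cluster 4, whose Cxcl13 level was below those of sub-clusters 2 and 3 in every library, held 80 DATK32, 392 MECA367 and 110 rat IgG barcodes. Sub-cluster 2 held 21.6% of stromal Cxcl13 in DATK32, 44.4% in MECA367 and 28.7% in rat IgG, and sub-cluster 3 held 49.9%, 27.8% and 52.6%. In MECA367 the larger part thus came from telocyte-like barcodes, and in DATK32 and rat IgG from the sub-cluster with Tnfsf13b and Grem1. Sub-clusters 0, 1 and 6 held almost no Cxcl13 apart from 56 UMIs in 5 MECA367 barcodes of sub-cluster 0. The sub-clusters with markers of another class held 98 DATK32, 14 MECA367 and 45 rat IgG UMIs (epithelial markers), 28, 21 and 30 (B and plasma cell markers) and 48, 213 and 84 (T cell markers).

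Genes detected beside Cxcl13 differed between the libraries. Among stromal barcodes thinned to 1000 UMIs, Grem1, an antagonist of bone morphogenetic proteins, was found in 44.1% of DATK32, 12.9% of MECA367 and 34.9% of rat IgG barcodes with Cxcl13, and in 7.84%, 7.87% and 8.96% of those without. Tnfsf13b, which encodes the B cell survival factor BAFF, was found in 18.3%, 5.16% and 23.6% of barcodes with Cxcl13 and in 3.82%, 3.51% and 2.64% of those without. Vcam1, an adhesion molecule of reticular stroma, was found in 41.9%, 23.2% and 28.3% of barcodes with Cxcl13 and in 12.4%, 20.6% and 12.3% of those without. For all 3 genes the gap between barcodes with and without Cxcl13 was smallest in MECA367. Over 26 clusters of the joined libraries, the genes most like Cxcl13 in log2 level were Hhipl1, Pcdh9 and 1200007C13Rik, with Pearson correlations of 0.91, 0.91 and 0.90. The clusters share libraries, and no p-value is attached to these.

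Cluster 10 stood outside the stromal class and was left unnamed because it carried neutrophil genes such as S100a8 along with stromal ones. It held 124 DATK32, 256 MECA367 and 299 rat IgG Cxcl13 UMIs, or 767, 660 and 2495 CPM, in 9 of 46, 15 of 75 and 16 of 56 barcodes. Rat IgG was the highest there, with log2 ratios of -1.70 for DATK32 and -1.92 for MECA367 over rat IgG, both called lower, as were 0.691% and 3.09% of its genes. A single barcode held 41 of the DATK32, 124 of the MECA367 and 140 of the rat IgG UMIs. Without those barcodes the levels were 526, 346 and 1369 CPM and both ratios were again called lower, at -1.38 and -1.98. Of its 177 barcodes, 110 held both S100a8 and the collagen gene Col3a1, and 70.1% were among the highest doublet scores, against 7.70% of stromal barcodes. Adding it to the stroma gave log2 ratios of -0.17 for DATK32 over rat IgG and 0.10 for MECA367 over rat IgG, an alternative chosen after the data were seen.

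**Figure D2:**
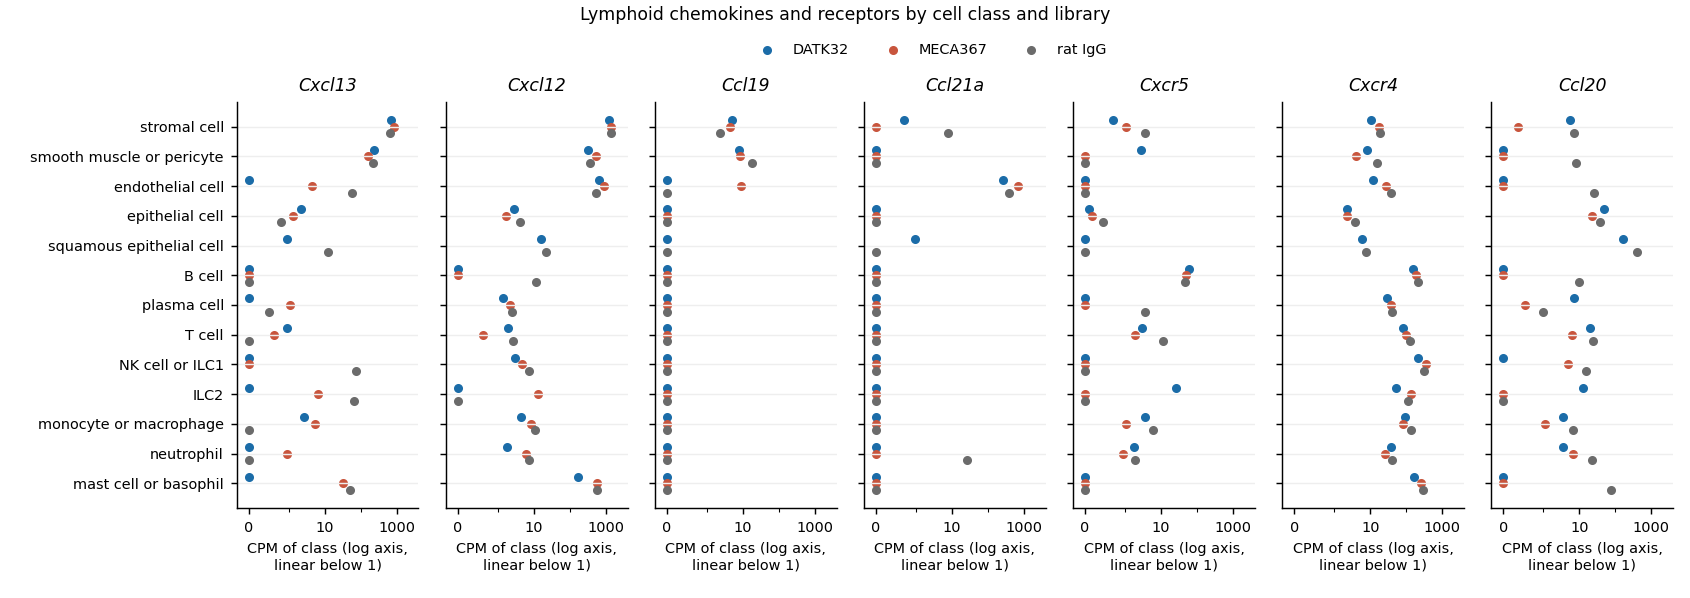
CPM of the 7 genes (horizontal axis, log scale and linear below 1) in 13 cell classes (rows) for the DATK32, MECA367 and rat IgG libraries. Cxcl13 and Cxcl12 are highest in stromal barcodes, with Cxcl12 also in endothelial and mast cell barcodes, Ccl21a is highest in endothelial barcodes, Cxcr5 in B cells and Ccl20 in epithelial and squamous barcodes, while Cxcr4 spreads over the leukocyte classes.

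Cxcl12, the ligand of CXCR4, was a broad stromal and vessel transcript, and its stromal level differed by less than 1.5-fold between the libraries. Of 9799 UMIs, 81.2% lay in stromal, 5.24% in smooth muscle or pericyte and 3.93% in endothelial barcodes. Mast cells or basophils held 59 UMIs, 1 in DATK32, 35 in MECA367 and 23 in rat IgG, in 23.2% of 69 barcodes. Of these barcodes, 3 of 7 in DATK32, 4 of 37 in MECA367 and 4 of 25 in rat IgG were among the highest doublet scores. Cxcl13 was counted in 3 of the 69. The part of stromal RNA in the mast cell or basophil counts was not tested. The stromal level was 1215 [1159 to 1273] CPM in DATK32, 1394 [1350 to 1439] CPM in MECA367 and 1369 [1315 to 1426] CPM in rat IgG. DATK32 was slightly the lowest, with log2 ratios of -0.17 [-0.26 to -0.08] over rat IgG and -0.20 [-0.28 to -0.12] over MECA367, and MECA367 over rat IgG was at 0.03 [-0.05 to 0.10]. None was called. The gene was counted in 66.9%, 82.1% and 68.2% of stromal barcodes, and in 61.0%, 68.5% and 65.5% after thinning, against 0.420%, 1.04% and 1.20% of neutrophils without thinning.

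All 9 stromal sub-clusters held Cxcl12, with values over the libraries from 487 to 2472 CPM, the highest in sub-cluster 3 of rat IgG. The sub-cluster led by Inmt, Pcolce2 and Penk departed from the rest: it was at 902 CPM in DATK32, 1765 CPM in MECA367 and 1600 CPM in rat IgG. DATK32 was called lower there, at -0.83 [-1.28 to -0.39] over rat IgG and -0.97 [-1.38 to -0.57] over MECA367, where 1.43% and 1.92% of its genes were called lower. The DATK32 value rested on 66 UMIs in 28 of its 63 barcodes. The most alike genes over 26 clusters were Ltbp4 (0.98), Serpinh1 (0.97) and Serping1 (0.97), by Pearson correlation of log2 levels.

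In endothelial barcodes Cxcl12 had 108 UMIs in DATK32, 193 in MECA367 and 84 in rat IgG, or 642, 862 and 522 CPM. MECA367 over rat IgG was called higher at 0.72 [0.35 to 1.11], as were 2.01% of 4435 endothelial genes. DATK32 over rat IgG was at 0.30 [-0.13 to 0.73] and was not called, and 0.992% of genes were called higher there. MECA367 was highest in a sub-cluster that also carried the pericyte genes Rgs5 and Myh11, with 10 UMIs in 5 of 8 DATK32 barcodes, 67 in 11 of 12 MECA367 barcodes and 9 in 5 of 12 rat IgG barcodes, and 33 of the 67 were in 1 barcode. The log2 ratio of MECA367 over rat IgG was 1.36 there (higher, as were 1.95% of its genes), and 0.998 with no call without the richest barcode of each library. In the sub-cluster led by Fam167b, Rbp7 and Gpihbp1 the direction was the opposite, with 1600 CPM in DATK32, 1202 CPM in MECA367 and 2116 CPM in rat IgG, and MECA367 over rat IgG was called lower at -0.82 [-1.30 to -0.32], as were 3.02% of its genes. Without the richest barcode of each library that ratio was -0.64 and not called. In smooth muscle or pericyte barcodes, Cxcl12 was at 319 CPM in DATK32, 526 CPM in MECA367 and 353 CPM in rat IgG, and DATK32 over MECA367 was called lower at -0.72 [-1.05 to -0.40], as were 1.86% of genes.

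Ccl19, a ligand of CCR7 made by reticular stroma of T cell zones, was barely detected. Its 40 UMIs came from 27 barcodes, with 57.5% of the UMIs in stromal and 35% in smooth muscle or pericyte barcodes. Stromal counts were 7 in 6 DATK32 barcodes, 12 in 10 MECA367 barcodes and 4 in 4 rat IgG barcodes. At 4.84 [1.95 to 9.97], 4.37 [2.26 to 7.64] and 2.31 [0.629 to 5.92] CPM the 3 libraries overlapped. The log2 ratios of 1.07 [-0.91 to 3.29] for DATK32 and 0.92 [-0.80 to 3.01] for MECA367 over rat IgG have intervals wide enough to include a fall or a large rise. No neutrophil held a Ccl19 UMI. A difference was not detectable at this depth. The second Ccl19 copy had no counts, and whether reads shared by the copies were dropped before deposit is not given in the sources used here, so the low count may understate the transcript.

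Ccl21a, the other CCR7 ligand measured and a product of lymphatic endothelium and T zone stroma, came mostly from 8 barcodes. These barcodes took the lymphatic endothelium-like name by Mmrn1, Lyve1 and Reln and held 254 of 288 UMIs, or 88.2%. The 2 DATK32 barcodes held 32 and 13 UMIs, the 4 MECA367 barcodes 58, 41, 36 and 19, and the 2 rat IgG barcodes 31 and 24. The other 306 endothelial barcodes held 5 UMIs in all. Outside the endothelium, 1 rat IgG stromal barcode held 13 UMIs and 1 rat IgG barcode in the neutrophil cluster held 14, together with 7 of Mmrn1 and 2 of Lyve1.

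Over all endothelial barcodes Ccl21a was at 267 [195 to 358] CPM in DATK32, 688 [583 to 805] CPM in MECA367 and 373 [285 to 480] CPM in rat IgG. MECA367 over rat IgG was called higher at 0.88 [0.44 to 1.34] and DATK32 over MECA367 lower at -1.36 [-1.88 to -0.88], in comparisons where 2.01% of genes were called higher and 1.6% lower, and DATK32 over rat IgG was at -0.48 [-1.07 to 0.10]. Within the lymphatic barcodes the order changed: 26802 CPM in DATK32, 23780 CPM in MECA367 and 38462 CPM in rat IgG, with MECA367 over rat IgG at -0.69 [-1.15 to -0.22] (lower, as were 4.55% of 66 genes). With 2, 4 and 2 lymphatic barcodes, the number of such cells caught and the transcript per cell cannot be told apart over the whole endothelium. With classes assigned by markers the endothelial ratio turned to -0.14 for MECA367 over rat IgG and 0.24 for DATK32 over MECA367, neither called.

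The assignment of Ccl21a reads is uncertain in part, because mouse chromosome 4 and separate scaffolds carry near-identical copies. Ccl21b and Ccl21c had no counts in any library. The annotated Ccl21b transcript of 402 bases lies within the 870 bases of Ccl21a, from base 76 to base 477, with 2 mismatches, T84A and C194T (Ccl21a base first, positions from the first base of the Ccl21b transcript). The stretches around them are shown because these bases alone tell the copies apart in that overlap. They cover bases 70 to 98 and 180 to 208 of the Ccl21b transcript, come from the reference transcripts on GRCm38, and have the differing base in capitals.
Ccl21a, bases 70 to 98: agtgatggagggggTcaggactgctgcct
Ccl21b, bases 70 to 98: agtgatggagggggAcaggactgctgcct
Ccl21a, bases 180 to 208: ggcaatcctgttctCaccccggaagcact
Ccl21b, bases 180 to 208: ggcaatcctgttctTaccccggaagcact
The Ccl21a transcript continues for 393 bases beyond the end of the annotated Ccl21b transcript. The libraries were made with a kit that reads transcripts near their 3′ end.

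Ccl20, the attractant of CCR6-bearing B and T cells, was an epithelial transcript, and in the ordinary epithelium MECA367 was the lowest of the 3 libraries. Of 1687 UMIs, 53.9% lay in epithelial and 36.2% in squamous epithelial barcodes. Epithelial counts were 450 in 173 of 1990 DATK32 barcodes, 134 in 82 of 1251 MECA367 barcodes and 325 in 167 of 2240 rat IgG barcodes. These are 49.7 [45.3 to 54.6], 22.7 [19.0 to 26.8] and 37.1 [33.2 to 41.4] CPM. MECA367 over rat IgG was called lower at -0.71 [-1.01 to -0.42], as were 3.13% of 12852 epithelial genes, and DATK32 over MECA367 higher at 1.13 [0.85 to 1.42], as were 1.61%. DATK32 over rat IgG was at 0.42 [0.21 to 0.63] and was not called, and 0.98% of genes were called higher there.

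The share of epithelial barcodes with Ccl20 was 8.69% in DATK32, 6.55% in MECA367 and 7.46% in rat IgG, and 3.04%, 2.31% and 2.93% after thinning, with median depths of 3678.5, 2080 and 3376.5 UMIs. In plasma cells, which should lack it and whose median depth was 4707, 6844 and 3167.5 UMIs, the shares were 2.60%, 0.395% and 0.369% without thinning and 0.383%, 0.403% and 0% with it. Of its deposited UMIs, 39.6% lay in barcodes over the mitochondrial limit, and the comparison changed with that limit. With a limit of 20%, MECA367 over rat IgG was at -0.18 and no longer called, and DATK32 over rat IgG was called at 0.75; with a limit of 5% MECA367 over rat IgG was at -1.34.

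**Figure D3:**
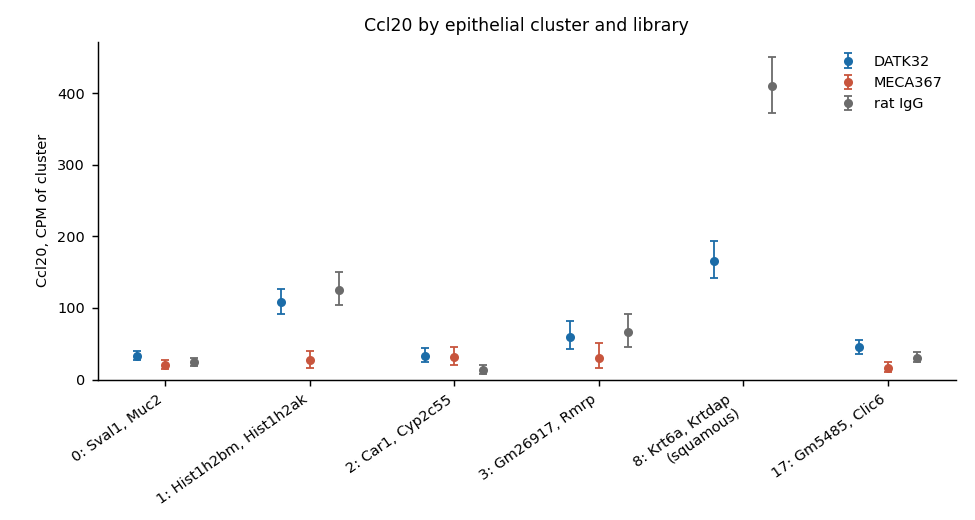
Ccl20 in CPM (points, with exact 95% Poisson intervals) in 6 epithelial clusters, named by leading genes, for the DATK32, MECA367 and rat IgG libraries. The squamous cluster is the highest, with 166 CPM in DATK32, 410 CPM in rat IgG and no MECA367 barcodes; in the histone-rich cluster 1 MECA367 lies below both.

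The epithelial clusters differed. In cluster 1, led by histone genes of dividing cells, Ccl20 was at 108 CPM in DATK32, 26.8 CPM in MECA367 and 125 CPM in rat IgG, a log2 ratio of -2.23 [-2.96 to -1.56] for MECA367 over rat IgG (lower, as were 2.6% of genes) and 2.02 [1.37 to 2.73] for DATK32 over MECA367 (higher, as were 1.34%). A single rat IgG barcode held 47 of the 115 UMIs there. Without the richest barcode of each library the levels were 96.5, 22.3 and 74.9 CPM, and MECA367 over rat IgG was still called lower, at -1.75. In cluster 2, marked by the colonocyte gene Car1, the order was another: 32.9 CPM in DATK32, 31.6 CPM in MECA367 and 13.1 CPM in rat IgG, with DATK32 and MECA367 both called higher than rat IgG, at 1.33 [0.56 to 2.14] and 1.27 [0.39 to 2.16], where 0.577% and 1.32% of genes were called higher. Those values rest on 48, 27 and 21 UMIs. Without the richest barcode of each library the ratios were 1.56 and 1.47, and MECA367 was no longer called. In cluster 17 DATK32 over MECA367 was called higher at 1.45 and in cluster 0, marked by the goblet cell mucin gene Muc2, at 0.71, where 1.22% and 2.25% of genes were called higher. The call in cluster 0 was lost, at 0.72, without the richest barcode of each library.

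Squamous epithelial barcodes, marked by Krt6a, Krt5 and Krt14, numbered 179 in DATK32, 0 in MECA367 and 231 in rat IgG. Ccl20 had 171 UMIs or 166 [142 to 193] CPM in DATK32 and 439 UMIs or 410 [372 to 450] CPM in rat IgG. DATK32 was called lower at -1.30 [-1.57 to -1.04], as were 2.33% of 8415 genes. These barcodes form a stratified epithelium that colon mucosa does not normally hold, and their presence in 2 libraries only means that whole-library Ccl20 (39.1, 8.93 and 46.4 CPM) cannot be compared between libraries. The low stromal and T cell counts of Ccl20 moved with epithelial RNA in those classes. Stromal barcodes held 8 DATK32, 1 MECA367 and 12 rat IgG UMIs of Ccl20 and a summed 1297, 726 and 2028 CPM of 10 epithelial markers, none of them at 0. T cells held 20, 10 and 18 UMIs of Ccl20 and 1724, 580 and 1910 CPM of those markers, none at 0. Of the stromal Ccl20 UMIs, 18 lay in the sub-cluster with epithelial markers. Of the T cell ones, 20 lay in 8 barcodes of such a sub-cluster. Another 17 lay in 5 barcodes of the regulatory T cell sub-cluster, which was not among those with markers of another class. MECA367 over rat IgG was called lower in both classes, at -4.25 [-9.67 to -1.49] and -1.96 [-3.24 to -0.77], and DATK32 over MECA367 higher, at 3.92 [1.02 to 9.39] and 1.61 [0.44 to 2.86]. In T cells 4.83% of genes were called lower in the first of these comparisons, and 3.66% higher and 1.78% lower in the second. In stromal barcodes 6.53% were called lower in the first, and 3.94% higher and 3.34% lower in the second. The part of epithelial RNA in these values was not tested. The genes most like Ccl20 over 26 clusters were Stoml2 (0.86), Pole3 (0.84) and Zmynd19 (0.84).

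Cxcr5, the receptor for CXCL13, had few UMIs, and more of them in B cells than in any other class. B cells held 48 of 105 UMIs, in 47 of 736 barcodes. The counts were 7 in DATK32, 9 in MECA367 and 32 in rat IgG, and the levels 59.2 [23.8 to 122] CPM, 47.7 [21.8 to 90.6] CPM and 45.1 [30.9 to 63.7] CPM. The 3 libraries overlapped. The log2 ratios were 0.39 [-1.03 to 1.60] for DATK32 over rat IgG, 0.08 [-1.17 to 1.18] for MECA367 over rat IgG and 0.31 [-1.35 to 1.90] for DATK32 over MECA367, none called, while 1.34%, 2.06% and 0.881% of 5676 B cell genes were called higher and 0.74%, 1.66% and 0.529% lower. The share of B cells with a Cxcr5 UMI was 7.69%, 5.41% and 6.44%, against 0.0503%, 0.0799% and 0.179% of epithelial barcodes, whose depth was greater. The fewer Cxcr5 UMIs of DATK32 and MECA367 thus went with fewer B cells (1.56%, 2.51% and 6.75% of kept barcodes) at levels whose intervals overlapped. Sub-clusters with markers of other classes made up 46.2%, 23.6% and 48.9% of B cell barcodes. Without them, an alternative chosen after the data were seen, Cxcr5 stood at 114, 60.0 and 78.0 CPM, again with no call.

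T cells held 3, 3 and 8 Cxcr5 UMIs in DATK32, MECA367 and rat IgG, or 2.88, 1.89 and 10.9 CPM. Rat IgG was the highest, with log2 ratios of -1.92 [-4.47 to 0.13] for DATK32 and -2.53 [-5.08 to -0.47] for MECA367 over rat IgG, neither called because the Poisson intervals touch. The genes most like Cxcr5 over clusters were Ccr6 (0.92), the receptor for CCL20, Blk (0.89), a B cell kinase, and Bfsp2 (0.83).

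Cxcr4, the receptor for CXCL12, was spread over leukocytes. B cells were at 152 [90.2 to 241] CPM in DATK32, 191 [134 to 264] CPM in MECA367 and 214 [182 to 251] CPM in rat IgG. The T cell levels were 82.6 [66.0 to 102] CPM in DATK32, 98.5 [83.6 to 115] CPM in MECA367 and 124 [100.1 to 153] CPM in rat IgG. Rat IgG was nominally the highest in both classes, and no difference was called: the log2 ratios over rat IgG were -0.49 and -0.17 in B cells and -0.59 and -0.34 in T cells for DATK32 and MECA367, and 0.489% and 2.4% of 9209 T cell genes were called higher and 1.08% and 4.83% lower. Cxcr4 was counted in 18.7%, 20.9% and 23.7% of B cells and 10.2%, 14.1% and 12% of T cells, against 0.955%, 0.719% and 1.25% of epithelial barcodes. After thinning the B cell shares were 17.3%, 15.4% and 15.6% and the T cell shares 8.29%, 10.3% and 10.4%.

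Other leukocytes carried it too. NK cells or ILC1 were at 207 CPM in DATK32, 349 CPM in MECA367 and 315 CPM in rat IgG, and DATK32 over MECA367 was called lower at -0.75 [-1.19 to -0.32], as were 1.07% of genes. Monocytes or macrophages were at 92.8 CPM in DATK32, 81.3 CPM in MECA367 and 138 CPM in rat IgG, and MECA367 over rat IgG was called lower at -0.77 [-1.11 to -0.42], as were 4.31% of genes. Plasma cells stood at 28.4, 37.2 and 40.1 CPM and neutrophils at 37.9, 25.8 and 41.4 CPM, with no call. Ppp1r16b (0.96), Rgs1 (0.95) and Arhgap15 (0.94) were the genes most like Cxcr4 over clusters.

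**Figure D4:**
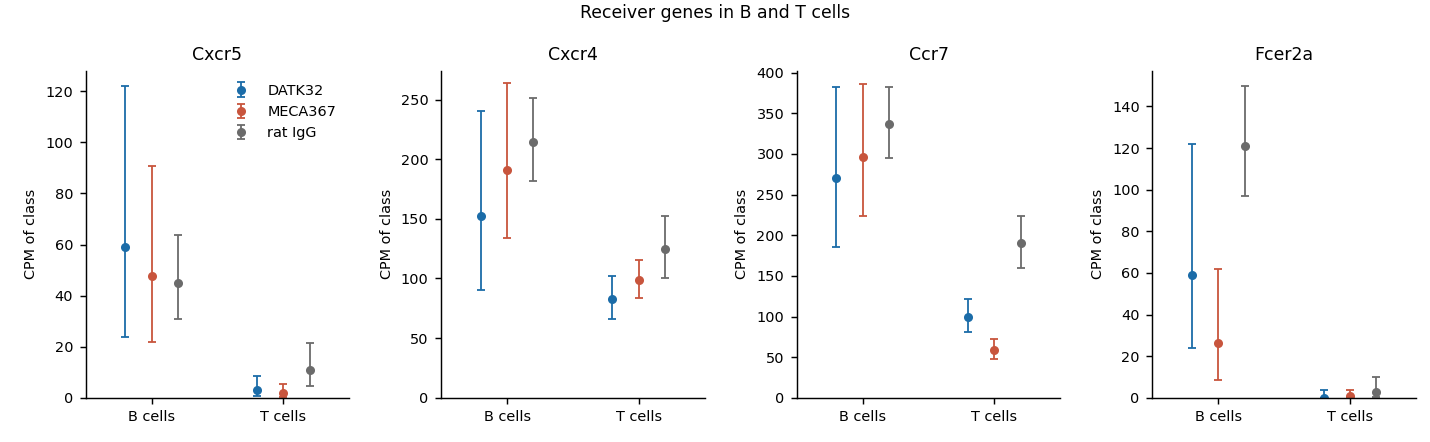
Cxcr5, Cxcr4, Ccr7 and Fcer2a in CPM (points, with exact 95% Poisson intervals) in B and T cells of the DATK32, MECA367 and rat IgG libraries. Cxcr5 and Cxcr4 overlap between libraries in B cells, while Ccr7 in T cells stands at 99.8 CPM in DATK32 and 58.7 CPM in MECA367, both below 190 CPM in rat IgG.

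Of the partner receptors, Ccr7, which binds CCL19 and CCL21 and marks naive and lymph node homing cells, separated the libraries in T cells. It was at 99.8 CPM in DATK32, 58.7 CPM in MECA367 and 190 CPM in rat IgG, with log2 ratios of -0.93 and -1.69 for DATK32 and MECA367 over rat IgG, both called lower, and 0.77 for DATK32 over MECA367, called higher. Ccr7 was not lower in T cells alone. It was also called lower than rat IgG in both libraries in stromal barcodes, at 9.68 CPM in DATK32, 8.75 CPM in MECA367 and 32.3 CPM in rat IgG, in smooth muscle or pericyte barcodes and in monocytes or macrophages, and for MECA367 in plasma and epithelial cells. Summed B cell markers in T cells were at 23.0, 24.0 and 54.6 CPM, with 2, 4 and 0 of 8 markers at 0, and their part in the Ccr7 values was not tested. Leaving out T cell sub-clusters with markers of other classes gave -1.12 and -1.87 over rat IgG. In B cells Ccr7 was at 271, 297 and 337 CPM with no call. Of 7 follicular helper genes 6 could be measured in T cells, and none was called in any of the 3 comparisons. Of 9209 T cell genes, 0.489% were called higher and 1.08% lower for DATK32 over rat IgG. The shares were 2.4% and 4.83% for MECA367 over rat IgG, and 3.66% and 1.78% for DATK32 over MECA367. No call among 6 genes is near those shares. The list medians were -0.10 for DATK32 and -0.35 for MECA367 over rat IgG, against -0.09 for both over all T cell genes. Among 8 follicular B cell genes in B cells, DATK32 was higher than rat IgG in Ms4a1, the CD20 gene (338 and 195 CPM), and MECA367 lower in Fcer2a, the CD23 gene of mature B cells (26.5 and 121 CPM, log2 ratio -2.19), and the other members were not called in those comparisons. Of all B cell genes 1.34% were called higher in the first comparison and 1.66% lower in the second. Fcer2a had 7 UMIs in DATK32, 5 in MECA367 and 86 in rat IgG.

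More listed genes of lymphoid stroma and of lymphocyte entry were called in MECA367 than in DATK32 when each was set against the same rat IgG library, as were more genes overall. The MECA367 stroma also held more UMIs, 2743281 against 1446716 in DATK32, which narrows its intervals and makes calls easier. Makeup of the stromal clusters differed too, so level and makeup cannot be told apart in the stromal sums. Of 12 follicular dendritic and reticular stroma genes 8 could be measured in stromal barcodes. In MECA367 over rat IgG, 3 were called higher and 1 lower, with a list median of 0.13 against -0.10 over all stromal genes, of which 3.39% were called higher and 6.53% lower. In DATK32 over rat IgG, 1 was called higher, with a median of 0.28 against -0.07 and 0.733% of all genes called higher. Vcam1 was at 258 CPM in DATK32, 298 CPM in MECA367 and 177 CPM in rat IgG (0.75 for MECA367), Icam1 at 268, 542 and 270 CPM (1.01) and Il33, which encodes an alarmin, at 51.8, 47.4 and 28.9 CPM (0.84 for DATK32 and 0.71 for MECA367). Clu was at 27.0, 10.9 and 43.9 CPM (-2.01 for MECA367). The defining follicular dendritic cell gene Cr2 had 111 UMIs in all, 75 of them in B cells. Of 4 measured axis partner genes and 4 oxysterol guidance genes, 1 of each was called higher and 1 of each lower in MECA367 stroma over rat IgG. The higher ones were Ackr3, a scavenger of CXCL12, at 60.5 and 26.6 CPM (1.19), and Ch25h, which starts the oxysterol ligands of GPR183, at 69.6 and 35.8 CPM (0.96). The lower ones were Ccr7 (-1.89) and the oxysterol receptor gene Gpr183, at 17.5 and 34.1 CPM (-0.96). Of 8 measured lymphotoxin and organiser genes, Tnfrsf11a, the RANK gene, was called lower, at 6.22 CPM in DATK32, 4.01 CPM in MECA367 and 17.9 CPM in rat IgG. Summed B cell markers in stromal barcodes were at 105, 68.9 and 173 CPM, and epithelial markers at 1297, 726 and 2028 CPM, in the same order. Monocyte or macrophage markers had another order, at 150, 291 and 206 CPM. The part of such RNA in the Ccr7, Gpr183 and Tnfrsf11a values was not tested. The receptor genes Ltbr and Tnfrsf1a, through which lymphotoxin and TNF induce lymphoid stroma, were not called, at 59.4, 58.3 and 71.0 CPM and 168, 174 and 154 CPM.

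**Figure D5:**
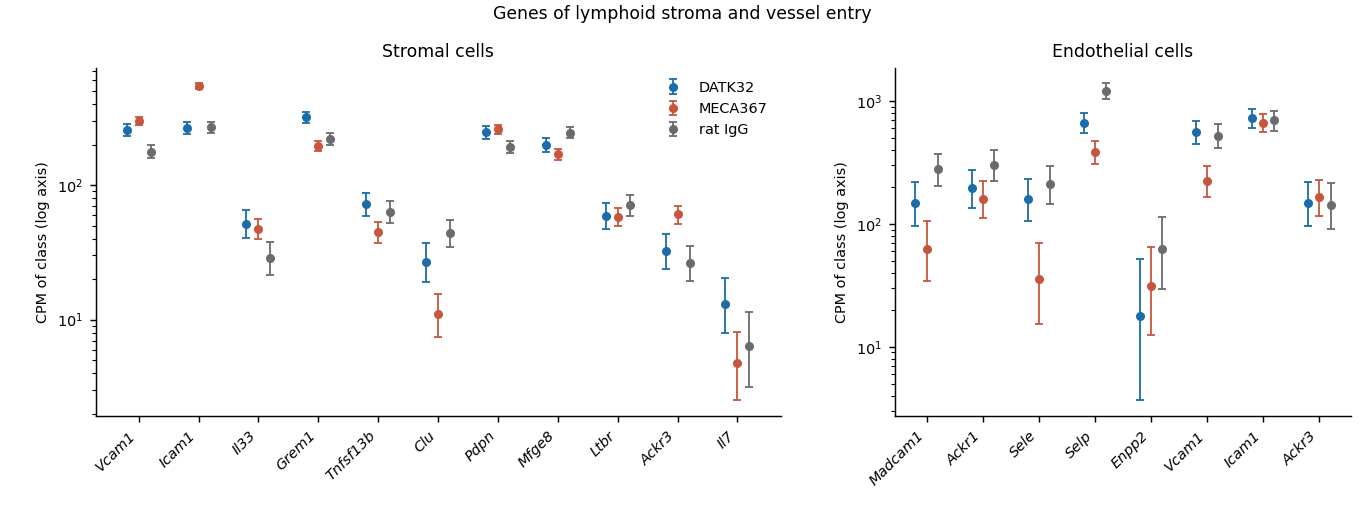
Listed genes of lymphoid stroma in stromal barcodes (left) and of vessel entry in endothelial barcodes (right), in CPM on a log axis with exact 95% Poisson intervals, for the DATK32, MECA367 and rat IgG libraries. Icam1 in the stroma is highest in MECA367 at 542 CPM, and Madcam1, Sele and Selp in the endothelium are lowest there, at 62.5, 35.7 and 384 CPM.

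In endothelial barcodes, 5 of 9 high endothelial venule genes could be measured. In MECA367 over rat IgG 4 were called lower, with a list median of -1.66 against -0.06 over all endothelial genes, and 2.66% of those were called lower. Madcam1, which encodes the vessel ligand of alpha4beta7, had 25 UMIs in DATK32, 14 in MECA367 and 45 in rat IgG, or 149, 62.5 and 280 CPM, a log2 ratio of -2.16 for MECA367. Selp, the P-selectin gene, was at 666, 384 and 1213 CPM, with -0.87 for DATK32 and -1.66 for MECA367 over rat IgG, and it was the single member called in DATK32, where 1.24% of genes were called lower and the list median was -0.87 against -0.07. In DATK32 over MECA367, Sele and Selp were called higher, at 2.17 and 0.79, as were 2.34% of genes. Sele, the E-selectin gene, was at 160, 35.7 and 211 CPM (-2.57) and Ackr1, a chemokine scavenger of venules, at 196, 161 and 305 CPM (-0.92). The sub-cluster led by Ackr1 and Selp held 17 DATK32, 15 MECA367 and 30 rat IgG barcodes, so fewer such barcodes and less RNA per barcode cannot be told apart in the class sums. Markers of other classes in the endothelial barcodes moved as well: summed plasma cell markers were at 1254 CPM in DATK32, 6208 CPM in MECA367 and 2127 CPM in rat IgG (2, 0 and 1 of 8 at 0), stromal markers at 2722, 987 and 2463 CPM (none of 9 at 0) and epithelial markers at 1551, 621 and 1673 CPM (0, 1 and 1 of 10 at 0). Their part in the venule values was not tested. Glycam1, a mucin-like gene of high endothelial venules, had 9 UMIs in 2 barcodes of all libraries.

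Direct markers of follicles beyond the chemokines were sparse. Rgs13, a germinal centre gene, had 30 UMIs over all kept barcodes. The follicle-associated epithelium and M cell list gave no call in epithelial barcodes in any comparison (5 of 8 members measured). Of 12852 epithelial genes, 0.98% were called higher and 1.43% lower for DATK32 over rat IgG. The shares were 2.04% and 3.13% for MECA367 over rat IgG, and 1.61% and 1.27% for DATK32 over MECA367. No call among so few genes is near those shares. Gp2, an M cell receptor gene, had 321 UMIs, but 98.1% of them lay in an unnamed cluster of 0 DATK32, 2 MECA367 and 33 rat IgG barcodes led by the pancreatic enzyme genes Try4, Cela3b and Cela2a.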

How the data were processed

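The authors deposited 3 single-cell matrices of raw UMI counts per gene and barcode, 1 library for each of DATK32, MECA367 and rat IgG, made with a droplet 3′ kit and sequenced in 1 lane per the labels. Per the submitters' processing notes, reads were processed with Cell Ranger 6.0.2 and the mm10 build; the annotation and the use of strand are not given in the sources used here. The deposited counts were not normalized, and 0 columns belonged to other samples.

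A barcode was kept with 500 UMIs or more, 200 genes or more and no more than 10% mitochondrial UMIs. They were scaled to 10000 and clustered jointly in Python 3.11.15 with scanpy 1.11.5 and igraph 0.11.9 (2000 variable genes without the 7 genes and their pathway genes, 30 components, 15 neighbours, Leiden resolution 1; sub-clusters at 0.5 with 20 components). The 28 clusters were named from 20 marker lists, and 4 stayed unnamed. Scrublet marked 1 barcode as a doublet, so it did not work at this threshold, and no barcode was removed; barcodes with the highest scores, 0.8% per 1000 barcodes, were left out as an alternative.

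UMI counts were summed per class and library. Poisson and ratio intervals were exact (SciPy 1.17.1, NumPy 2.4.6). A gene was counted as measured with at least 20 counts in a class, and called at 1.5-fold with intervals apart. With 1 library per group there was no test and no p-value, and intervals assume independent UMIs. The step was tested on simulated data with independent UMIs, which does not cover genes whose UMIs sit in few barcodes. A count of 0 was given a limit of 3 counts. Size factors used R 4.3.3 and edgeR 4.0.16. Likeness was Pearson's correlation of log2(CPM + 1) over clusters of at least 30 barcodes, and the 3 most alike genes with at least 50 counts were named. Any gene of 9 pathway lists could be named beside the 7. The 7 genes and all lists were chosen with earlier results of these data known. Some genes of these lists are not reported here.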

Additional observations from a re-analysis of the deposited data

Results flagged for a closer look

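The Cxcl13 ratios differed in direction between stromal clusters. For MECA367 over rat IgG the log2 ratio was 3.74 in cluster 9, -1.09 in cluster 16 and 0.99 in cluster 21. For DATK32 over MECA367 it was -3.31, 1.13 and -0.79 in the same clusters. Each group is 1 library, so the differences between clusters were not tested. MECA367 held 320, 646 and 275 barcodes in clusters 9, 16 and 21, against 664, 396 and 249 in rat IgG. A change of level and one of makeup cannot be told apart. Without the richest barcode of each library the cluster 9 ratio was 3.99, on 61 MECA367 and 5 rat IgG UMIs. In sub-clusters 2, 3 and 4, also without the richest barcodes, MECA367 over rat IgG was at 0.54, -0.37 and 0.48, with no call. It was called higher in sub-cluster 0 and lower in sub-cluster 5, and was not called in sub-clusters 7 and 8.

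Ccl20 differed in direction between epithelial clusters, again without a test. For DATK32 over rat IgG it was higher in cluster 2, marked by Car1, with a log2 ratio of 1.33, and lower in squamous barcodes, with -1.30. For MECA367 over rat IgG it was lower in the histone-rich cluster 1, with -2.23, and higher in cluster 2, with 1.27. The cluster 2 values rest on 48 DATK32, 27 MECA367 and 21 rat IgG UMIs, and the call for MECA367 is lost without the richest barcode of each library.

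Barcodes over the mitochondrial limit, left out of the main comparisons, carried Ccl20 and Cxcl12 above the rat IgG level in 1 library each and below it in the other. Ccl20 was at 51.0 CPM there in DATK32 and 16.6 CPM in MECA367, against 33.6 CPM in rat IgG. Cxcl12 was at 17.7 CPM in DATK32 and 42.1 CPM in MECA367, against 30.5 CPM in rat IgG. These levels pool all cell classes of a library, so class makeup and level within a class cannot be told apart. The differences were not tested.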

How the results depend on the processing

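Of 423 alternative values for 24 results under 19 settings, 360 stayed within the 95% interval of the reported ratio, 59 moved out of it and 4 turned the direction of a called value. All values below are log2 ratios, and the causes of the shifts were not tested. No stromal Cxcl13 or Cxcl12 ratio was called under any alternative that gives calls.

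For Cxcl13 over rat IgG, MECA367 was at 0.49 with TMM factors, 0.50 with median-of-ratios factors, 0.51 with each library clustered on its own, 0.27 with a mitochondrial limit of 5%, 0.13 with at least 1000 UMIs and 500 genes, 0.13 with classes by markers, 0.0502 with every deposited barcode, 0.13 as a mean over barcodes, 0.27 without the highest doublet scores and -0.38 thinned to 1000 UMIs. DATK32 was at -0.11 with at least 1000 UMIs and 500 genes, -0.15 with classes by markers, -0.15 with every deposited barcode, -0.22 without the highest doublet scores and -0.53 thinned. For DATK32 over MECA367 it was -0.17 with a limit of 20%, -0.20 with every barcode, -0.19 as a mean over barcodes, -0.48 without the highest doublet scores and -0.14 thinned.

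Cxcl12 for MECA367 over rat IgG was 0.14 with TMM, 0.15 with median-of-ratios, 0.14 with a limit of 20%, -0.16 with 5% and -0.12 without the highest doublet scores. For DATK32 over rat IgG it was -0.29 as a mean over barcodes, -0.29 thinned and -0.29 without the highest doublet scores, and over MECA367 -0.28 as a mean over barcodes and -0.0009 with a limit of 5%.

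Ccl21a, in few barcodes, depended most on the setting. For MECA367 over rat IgG it was 3.95 at 1000 UMIs, -0.14 with classes by markers, -0.0533 with every barcode, 1.42 with separate clustering, 0.30 as a mean over barcodes, 4.61 thinned and 2.33 without the highest doublet scores. For DATK32 over rat IgG it was 2.59 at 1000 UMIs, 0.18 with every barcode, 3.94 thinned and -1.22 without the top barcode. For DATK32 over MECA367 it was 0.24 with classes by markers, 0.23 with every barcode, -0.67 thinned, -3.14 without the highest doublet scores (a limit from 3 counts, as DATK32 had none) and -2.48 without the top barcode. The lymphatic barcodes held 1107 and 572 UMIs in DATK32, 2505, 1717, 1269 and 985 in MECA367, and 621 and 809 in rat IgG. The rat IgG ones were thus all left out at 1000 UMIs and by thinning, while the other libraries kept some.

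Ccl20 was 0.75 for DATK32 and -0.18 for MECA367 over rat IgG with a limit of 20%, and -1.34 for MECA367 over rat IgG and 1.92 for DATK32 over MECA367 with 5%. Cxcr5 in B cells was 1.35 for MECA367 over rat IgG with 5%. Cxcr4 in T cells was 0.22 for DATK32 over MECA367 at 1000 UMIs and 0.0102 for DATK32 over rat IgG with separate clustering.

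The following alternatives were chosen after the data were seen, as were the values in clusters and sub-clusters without the richest barcode of each library, which the report gives where they change a call or a level. With each stromal cluster at the same weight, Cxcl13 was 0.17 for MECA367 over rat IgG and -0.0646 for DATK32 over MECA367, and Cxcl12 -0.12 and -0.0892. With the mixed neutrophil cluster added, Cxcl13 was -0.17 for DATK32 and 0.10 for MECA367 over rat IgG. Without sub-clusters carrying another class's markers, Cxcl13 was -0.29 and 0.105, and Cxcl12 -0.35 and -0.20, for DATK32 and MECA367 over rat IgG.

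With a fold of 2, the calls summed over stromal, endothelial, epithelial, B and T cells numbered 567 for DATK32 over rat IgG, 1594 for MECA367 over rat IgG and 1040 for DATK32 over MECA367, against 979, 2925 and 1989. TMM moved the median of all genes by 0.12 in stromal and 0.16 in T cells for MECA367 over rat IgG, and by -0.19 in B cells for DATK32 over rat IgG. No paired analysis was possible because each group is 1 library. Counts limit Ccl19 in stromal cells (4 to 12 per library), Cxcr5 in B cells (7 to 32) and Cxcr4 in DATK32 B cells (18), and Ccl21a rests on few barcodes.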
